A study of Mus musculus with 4 samples.

Results

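The microRNAs (miRNAs) described here are the 6 mature arms of the miR-148 and miR-152 family, mmu-miR-148a-3p, mmu-miR-148a-5p, mmu-miR-148b-3p, mmu-miR-148b-5p, mmu-miR-152-3p and mmu-miR-152-5p. They were taken by name from the 1038 known mouse miRNAs listed in the deposited expression table, and all 6 are listed. Small RNA was sequenced from the medial prefrontal cortex of C57BL/6 mice (C57BL/6J in the study's methods), in 2 libraries of mice kept under chronic unpredictable mild stress (CUMS) and 2 libraries of control mice that lived without these stressors. The mice were juvenile males at the start, and the CUMS mice that were sequenced were chosen by their behavior from a larger stressed group, so they stand for the stressed mice that had developed depression-like behavior. RNA was isolated from each mouse separately, and no mutation or drug distinguished the groups. Within each group the libraries are named a and b, and these letters pair nothing between groups.

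A miRNA precursor is a hairpin that is cut into a duplex of 2 arms, one from its 5′ side (5p) and one from its 3′ side (3p). One arm is usually kept by an Argonaute protein and guides it to messenger RNAs, and the other is usually degraded. The bases at the 5′ end of the kept arm, called the seed, pair with sites that lie mostly in 3′ untranslated regions (UTRs), and miRNAs with the same seed can bind the same sites. miR-148a, miR-148b and miR-152 are classed as a family by the seed of their 3p arms. The 3p arms are known as regulators of the cholesterol exporter gene Abca1 and of the DNA methyltransferase gene Dnmt1.

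The mature sequences from RefSeq (GRCm38.p6) are printed because they set which arms can share targets and which bases tell the arms apart in sequencing. Capitals mark the seed, bases 2 to 8 from the 5′ end.
mmu-miR-148a-3p: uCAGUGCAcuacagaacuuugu
mmu-miR-148b-3p: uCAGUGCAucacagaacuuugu
mmu-miR-152-3p: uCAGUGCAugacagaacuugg
mmu-miR-148a-5p: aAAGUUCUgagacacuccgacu
mmu-miR-148b-5p: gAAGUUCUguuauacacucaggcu
mmu-miR-152-5p: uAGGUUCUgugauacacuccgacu

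All 3 of the 3p arms carry the seed CAGUGCA. The 3p arms of miR-148a and miR-148b were identical at 20 of 22 positions and differed by C9U and U10C, where positions are counted from 1 at the 5′ end and the base of miR-148a comes first. The 3p arms of miR-148a and miR-152 were identical at 18 of the 21 positions compared and differed by C9U, U10G and U20G. The differences thus lie outside the seed. The 5p arms were less alike. Those of miR-148a and miR-148b share the seed AAGUUCU but were identical at 13 of 22 positions, whereas miR-152-5p has its own seed, AGGUUCU, and was identical to miR-148b-5p at 19 of 24 positions.

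The hairpins from RefSeq (GRCm38.p6) are shown because they place both arms of each precursor, which are compared with each other in what follows. Capitals mark the 5p arm and then the 3p arm.
miR-148a: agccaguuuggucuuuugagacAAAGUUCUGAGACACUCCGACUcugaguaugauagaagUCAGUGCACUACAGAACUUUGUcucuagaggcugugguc
miR-148b: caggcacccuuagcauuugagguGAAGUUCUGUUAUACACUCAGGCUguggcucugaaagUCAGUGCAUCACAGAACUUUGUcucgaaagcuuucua
miR-152: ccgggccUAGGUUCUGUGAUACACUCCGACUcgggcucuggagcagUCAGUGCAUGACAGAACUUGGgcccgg

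Between the arms lie 16 bases in miR-148a, 13 bases in miR-148b and 15 bases in miR-152. The longest stretch that 2 of these hairpins share is 15 bases, between miR-148a and miR-148b. Reads of at least 18 bases were matched without mismatches, so no such read can match 2 of the 3 hairpins, and the near-identical 3p arms were counted apart.

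The 3 precursors lie on separate chromosomes (GRCm38). Mir148a is at chr6:51269812-51269910 on the minus strand, outside any other annotated gene, and its nearest protein-coding neighbors are Npvf on one side and Nfe2l3, at 162759 bases, on the other. Mir148b is at chr15:103285125-103285221 on the plus strand, within intron 1 of Copz1 and on the same strand. Mir152 is at chr11:96850393-96850465 on the plus strand, within intron 1 of Copz2, also on the same strand. Copz1 and Copz2 encode the zeta subunits of the COPI coat, which covers vesicles of the Golgi apparatus. The annotation also places a gene of the NF-E2 transcription factor family beside each precursor, with Nfe2 at 26721 bases from Mir148b and Nfe2l1 at 20424 bases from Mir152. No member lies within a miRNA cluster, as the nearest other annotated miRNA gene was 65234 bases from Mir148b and farther from the other precursors.

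The libraries held 9589323 to 10783592 reads on known miRNAs. Control library b stood apart from the others, since 9.32% of its reads came from the 14 miRNAs of the miR-183 and miR-200 clusters, which mark sensory cells and epithelium, against 0.0393% to 0.0722% in the other 3 libraries. A list of 4 miRNAs of neurons and cortex was detected in full, at 66998 to 82371 counts per 1000000 miRNA reads (CPM) in control and 82732 to 94269 CPM in CUMS, and the hepatocyte miRNA miR-122-5p reached at most 0.104 CPM. Both miRNAs of a list for oligodendrocytes were detected, at a summed 747 to 758 CPM in control and 612 to 704 CPM in CUMS, as were the 3 of a list for red cells, at 10684 to 11622 CPM and 11671 to 13310 CPM. The 2 miRNAs of a list for choroid plexus summed to 1243 to 1625 CPM in CUMS against 1644 to 2042 CPM in control. The 2 muscle miRNAs listed of 3 summed to 19.4 to 19.8 CPM against 21.9 to 32.3 CPM. In CPM, the groups did not overlap in the lists for neurons and cortex, oligodendrocytes, red cells, choroid plexus and muscle. After division by library size factors, the groups overlapped in the lists for neurons and cortex and for red cells. They still did not overlap in those for oligodendrocytes, choroid plexus and muscle. In CPM they overlapped in the lists for microglia and blood immune cells, endothelium, mural cells, and epithelium and sensory cells. miR-122-5p, the only one listed for liver, was too low to compare. Groups without overlap were also seen in 33.8% of the single miRNAs tested after normalization. That share is of single miRNAs in normalized reads and not of list sums in CPM. The CPM of control library b are relative to a total that holds its miR-183 and miR-200 reads. The part of these other cells in the values of the family was not tested. In such bulk tissue, fewer cells of a type and less RNA per cell cannot be told apart. Values below are normalized reads, that is reads divided by the size factor of the library, unless stated otherwise. Each read was counted for a mature miRNA of 21 to 24 bases, so levels of different arms were compared without dividing by length. Levels and shares of arms are those of reads, and whether the libraries captured each arm equally was not tested. Per the study's methods offsets from the mature sequence were allowed, so a read need not be the whole of it.

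By reads, the family in this cortex consisted almost wholly of mmu-miR-148a-3p. Control libraries a and b held 43639 and 45707 normalized reads of it, and CUMS libraries a and b held 46810 and 42854, which made it number 32 of the 1038 miRNAs by level. The CUMS libraries lay on both sides of both control libraries. The miR-148a precursor supplied 97.9% to 98.7% of the reads of the family in each library, miR-148b 1.30% to 2.08% and miR-152 0.0446% to 0.0783%. The 6 arms together took 0.436% to 0.437% of all miRNA reads under control conditions, 0.491% in CUMS library a and 0.437% in CUMS library b.

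mmu-miR-148b-3p was at 630 and 696 normalized reads in controls, compared with 493 and 705 after CUMS. Its lowest and highest values were both in CUMS libraries. The 3p arm of miR-148a had 65.7 and 69.3 reads for each read of miR-148b-3p in controls, compared with 94.9 and 60.8 after CUMS. mmu-miR-152-3p was far lower, at 32 and 19 reads in controls compared with 20 and 28 after CUMS, or 31.3, 19.0, 18.8 and 29.7 after normalization. The groups overlapped. The 3p arm of miR-148a exceeded it 1394-fold to 2486-fold within a library.

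Among the 5p arms the order of the precursors was the same, but the step from miR-148a to miR-148b was smaller. mmu-miR-148a-5p was at 566 and 500 normalized reads in controls, compared with 744 and 578 after CUMS. The groups did not overlap, and CUMS was the higher one. mmu-miR-148b-5p was at 96.8 and 135 in controls, compared with 134 and 217 after CUMS. Its highest value was in CUMS library b, and the lower CUMS library fell just under the higher control library. The 5p arm of miR-148a had 2.66 to 5.85 reads for each read of miR-148b-5p within a library.

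mmu-miR-152-5p was read 4 and 2 times in controls, compared with 3 and 2 times after CUMS, 11 reads in all. With group means of 2.96 and 2.47 normalized reads, both under a floor of 3 reads, no ratio is given for it. In the order of levels, miR-148a-3p came first, then miR-148b-3p and miR-148a-5p, then miR-148b-5p, miR-152-3p and miR-152-5p. The neighbors miR-148b-3p and miR-148a-5p were not separated, as miR-148a-5p was lower in both control libraries and in CUMS library b, but higher in CUMS library a. The order of the other neighbors held in all 4 libraries.

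**Figure D1:**
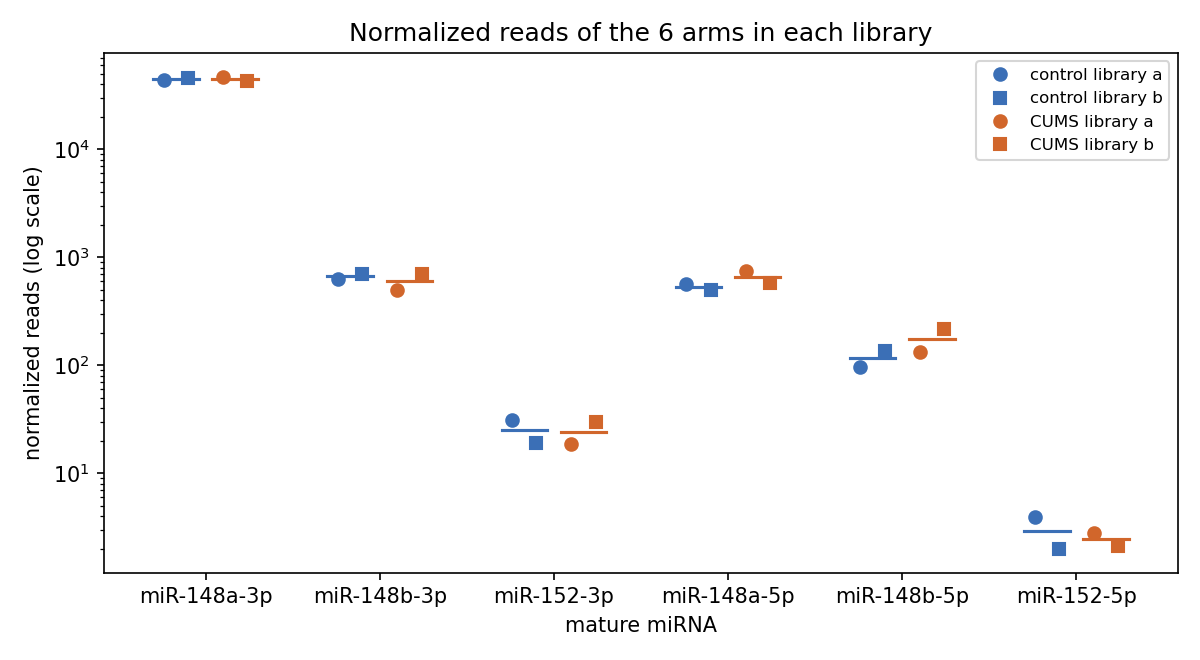
Normalized reads (log scale) of the 6 mature arms in each of the 4 libraries, with circles for library a and squares for library b of each group and lines for the group means. The arms span the range from 45707 normalized reads of miR-148a-3p in control library b down to 2.00 of miR-152-5p in the same library, and the group means of each arm lie close together on this scale.

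The next question was how the 2 arms of each precursor shared its reads. In all 3 precursors the 3p arm was the main one, but to very different degrees. In miR-148a the 5p arm made up 1.31% ± 0.198 (SD, n = 4) of the reads of both arms. In miR-148b it made up 18.6% ± 4.67 (SD, n = 4), and in miR-152 10.1% ± 2.70 (SD, n = 4). Put another way, each 5p read of miR-148a stood beside 62.9 to 91.5 reads of the 3p arm, each 5p read of miR-148b beside 3.24 to 6.51, and each 5p read of miR-152 beside 6.67 to 14.0.

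Pairwise differences in log2(5p/3p) were taken within each library. The ratio of miR-148b was above that of miR-148a by 4.08 ± 0.39 (SD, n = 4), between 3.57 and 4.51, in 4 of 4 libraries. The ratio of miR-152 was above that of miR-148a by 3.04 ± 0.43 (SD, n = 4), also in 4 of 4 libraries. The difference of miR-152 minus miR-148b was -1.04 ± 0.76 (SD, n = 4), from -2.11 to -0.30, and it was below 0 in every library. A two-sided exact sign-flip permutation test over the libraries gave p = 0.13 for each of the 3 pairs, which is the smallest p that 4 libraries allow, and 0.13 after Benjamini-Hochberg adjustment over the 3 pairs. The differences of miR-148a from the other precursors were thus many times the spread between libraries. Both differences that involve miR-152 rested on at most 4 reads of miR-152-5p in a library, and with 0.5 added to both arms they were 3.27 from miR-148a and -0.81 from miR-148b.

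The strong use of the 3p arm in miR-148a was not rare among precursors. Over the 200 precursors that had enough reads, the median share of the 5p arm was 53.5%, and 94 of the 200 had fewer 5p than 3p reads. A share below that of miR-148a was found in 24 precursors, and a share below that of miR-148b in 59.

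In each library the share of 5p reads of miR-148a was 1.28% (Wilson 95% confidence interval 1.18 to 1.39) in control library a and 1.08% (0.991 to 1.18) in control library b. It was 1.56% (1.46 to 1.68) in CUMS library a and 1.33% (1.23 to 1.45) in CUMS library b. The groups did not overlap, with CUMS higher, but the intervals of control library a and CUMS library b overlapped.

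For miR-148b the share was 13.3% (11.1 to 16) and 16.2% (13.9 to 18.9) in controls. It was 21.3% (18.4 to 24.6) and 23.6% (20.9 to 26.5) after CUMS. Here too both CUMS libraries were higher, and only the intervals of control library b and CUMS library a overlapped. For miR-152 the share was 11.1% (4.41 to 25.3) and 9.52% (2.65 to 28.9) in controls, compared with 13% (4.54 to 32.1) and 6.67% (1.85 to 21.3) after CUMS, so no difference was detectable at this depth. The intervals cover counting error only.

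**Figure D2:**
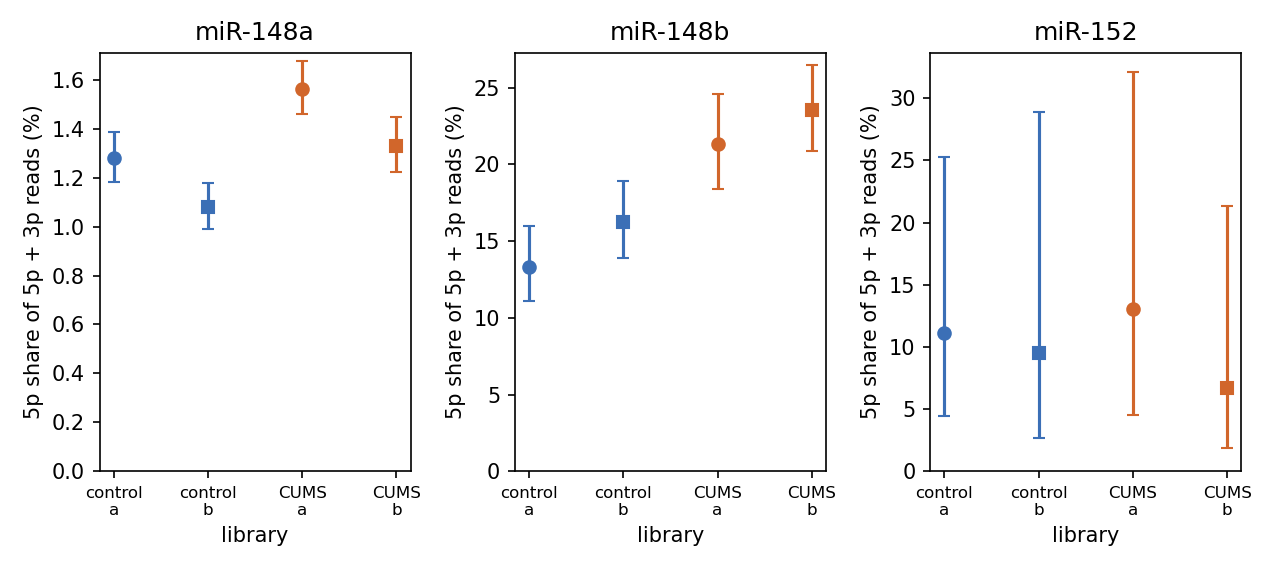
Share of 5p reads among the 5p and 3p reads of each precursor (%, each panel with its own axis from 0) in the 4 libraries, with Wilson 95% confidence intervals as bars. In miR-148a and miR-148b the CUMS libraries lie above the control libraries, at 1.33% and 1.56% against 1.08% and 1.28% and at 21.3% and 23.6% against 13.3% and 16.2%, while the wide bars of miR-152 overlap.

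The ratio of arms does not depend on how libraries are scaled to each other. It was tested with limma on log2((5p + 0.5)/(3p + 0.5)) in 201 precursors with both arms counted. The change from control to CUMS was 0.74 (SE 0.25) for miR-148b, with an unadjusted p of 0.0152, the second smallest of the 201, and an adjusted p of 0.776 by limma. For miR-148a it was 0.30 (SE 0.20), with an unadjusted p of 0.175 and an adjusted p of 0.862 by limma. No precursor of the 201 had an adjusted p under 0.05 by limma (0%), and 11 (5.47%) had an unadjusted p under 0.05. With one library left out, limma gave 3 to 24 precursors with an unadjusted p under 0.05, and 1 with an adjusted p under 0.05 without CUMS library b. The unadjusted limma p of miR-148b was 0.119 without control library a and 0.0267, 0.00719 and 0.0414 without control library b, CUMS library a and CUMS library b. miR-152 was not tested because its 5p arm stayed under 5 reads in every library.

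Groups that do not overlap were common at this sample size. They were found in the arm ratio of 70 of the 201 precursors (34.8%), and in 36 (17.9%) the CUMS libraries were the higher ones, as in miR-148a and miR-148b. A change at least as large in size as that of miR-148b was seen in 54 of the 201 precursors, and one as large as that of miR-148a in 105. With 2 libraries against 2, the two-sided exact permutation test of one precursor cannot go below p = 0.333, which is its value for miR-148a and for miR-148b. Neither change passed a test that takes account of the number of precursors.

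**Figure D3:**
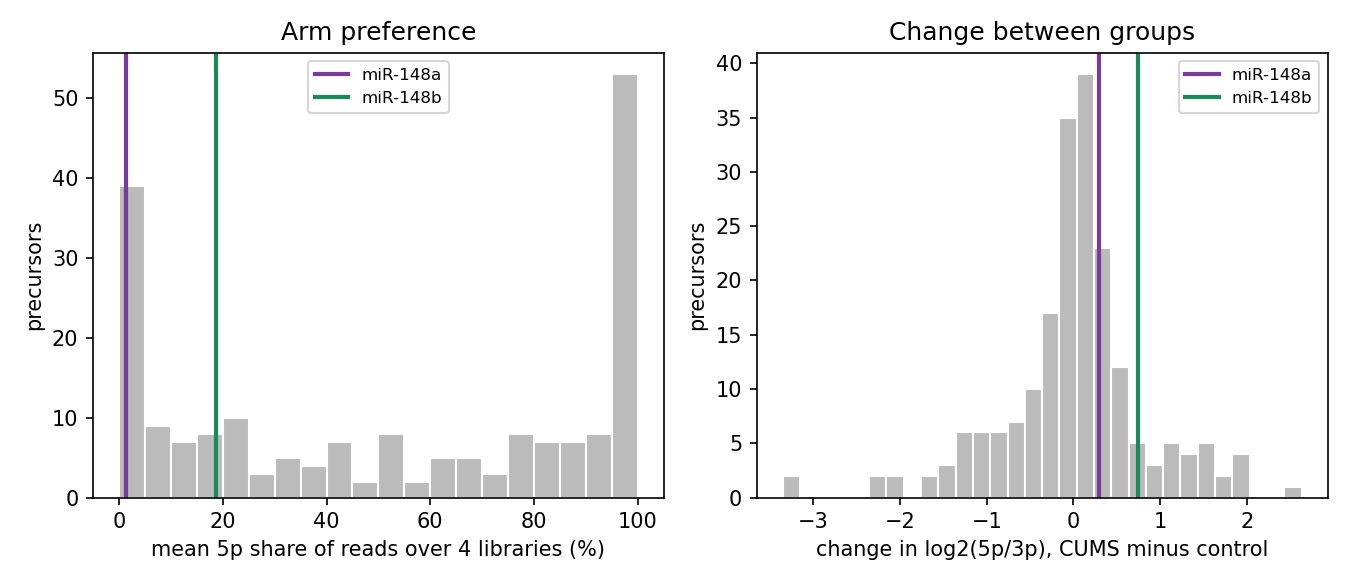
Left, number of precursors by their mean share of 5p reads over the 4 libraries (%, 200 precursors), and right, number of precursors by the change in log2(5p/3p) from control to CUMS (201 precursors), with vertical lines for miR-148a and miR-148b. miR-148a (1.31%) lies in the peak of precursors with almost only 3p reads and miR-148b (18.6%) in the sparse middle, and their changes of 0.30 and 0.74 lie within the spread of the other precursors.

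The levels of the 3p arms, which carry the family seed, differed little between CUMS and control. The mean of miR-148a-3p was 44673 ± 1462 normalized reads (SD, n = 2) in control and 44832 ± 2797 (SD, n = 2) in CUMS, a log2 ratio of 0.01. For miR-148b-3p the means were 663 ± 46.5 and 599 ± 149 (SD, n = 2 each), a log2 ratio of -0.15 against a spread between libraries of 0.27. For miR-152-3p they were 25.1 ± 8.70 and 24.2 ± 7.66 (SD, n = 2 each), a log2 ratio of -0.05 against a spread of 0.49. Each of these ratios was smaller than the spread between libraries. The direction for all 3 of the 3p arms was set by single libraries. The log2 ratio of miR-148a-3p was -0.06 without CUMS library a and 0.07 without CUMS library b. Without CUMS library a the log2 ratio of miR-148b-3p was 0.09, and without CUMS library b it was -0.43. Without control library a the log2 ratio of miR-152-3p was 0.35, and without CUMS library a 0.24.

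Reads with the seed CAGUGCA came to 44300 and 46421 normalized reads in controls, compared with 47322 and 43589 after CUMS, when the 3p arms were summed. The sum repeats the level of miR-148a-3p, with a log2 ratio of 0.00 and a spread between libraries of 0.07. A change of the size of this spread or smaller could not be seen. Larger changes could be missed too, as the log2 fold change of miR-148a-3p had an SE of 0.17 in DESeq2's Wald test.

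The 5p arms of miR-148a and miR-148b were both higher in CUMS on average. The means of miR-148a-5p were 533 ± 47.1 and 661 ± 117 normalized reads (SD, n = 2 each), a 1.24-fold ratio or 0.31 on the log2 scale, against a spread between libraries of 0.20. The means of miR-148b-5p were 116 ± 26.9 and 175 ± 59.0 (SD, n = 2 each), a 1.51-fold ratio or 0.60 on the log2 scale, against a spread of 0.42. Summed over the 3 precursors, the 5p arms came to 667 and 637 normalized reads in controls, compared with 880 and 798 after CUMS. Both CUMS sums were above both control sums, with a log2 ratio of 0.36 and a spread of 0.08. The two-sided exact permutation test gave p = 0.333 for the sum, the smallest p that 2 libraries against 2 allow. Groups without overlap were seen in 33.8% of the single miRNAs tested.

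The high library was not the same one in the 2 arms. miR-148a-5p was highest in CUMS library a, and without that library its log2 ratio was 0.12. miR-148b-5p was highest in CUMS library b, and without that library its log2 ratio was 0.21. Without control library a the log2 ratio of miR-148b-5p was 0.38. Without control library b, the library with the miR-183 and miR-200 reads, the log2 ratios were 0.22 for miR-148a-5p and 0.86 for miR-148b-5p. Whichever single library was left out, both arms were on average higher in CUMS. So was the sum of the 5p arms, with log2 ratios between 0.29 and 0.43. For miR-148a-5p and the sum this direction could not turn, because their groups did not overlap.

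Tests over all miRNAs called none of the members. In edgeR's quasi-likelihood test on the recovered reads, with 719 miRNAs tested, miR-148b-5p had a log2 fold change of 0.56, an unadjusted p of 0.115 and an adjusted p of 0.849. For miR-148a-5p the edgeR log2 fold change was 0.28, with an unadjusted p of 0.256 and an adjusted p of 0.865. The edgeR adjusted p was 0.980 for miR-148a-3p, 0.931 for miR-148b-3p and 0.980 for miR-152-3p. Of the 5 members that passed the minimum of 5 reads, 0 had an adjusted or unadjusted p under 0.05 by edgeR or by DESeq2. Over all miRNAs, edgeR called 0 (0%) at an adjusted p under 0.05 and 30 (4.17%) at an unadjusted one, and DESeq2 called 0 and 23.

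By the size of the ratio alone, 1 of the 5 members, miR-148b-5p, passed a fold of 1.5. This was so for 161 of 628 miRNAs (25.6%) in either direction and for 75 (11.9%) with CUMS higher. After a rescaling that set the median log2 ratio of well-expressed miRNAs to 0, or without control library a or CUMS library b, no member passed it. The groups did not overlap in 1 of the 5 members, miR-148a-5p, against 243 of the 719 miRNAs (33.8%). The median log2 ratio of the 5 members was 0.01, with 3 of 5 higher in CUMS, and that of all 623 miRNAs with a finite ratio was 0.02, with 330 higher. These shares were near those of all miRNAs.

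**Figure D4:**
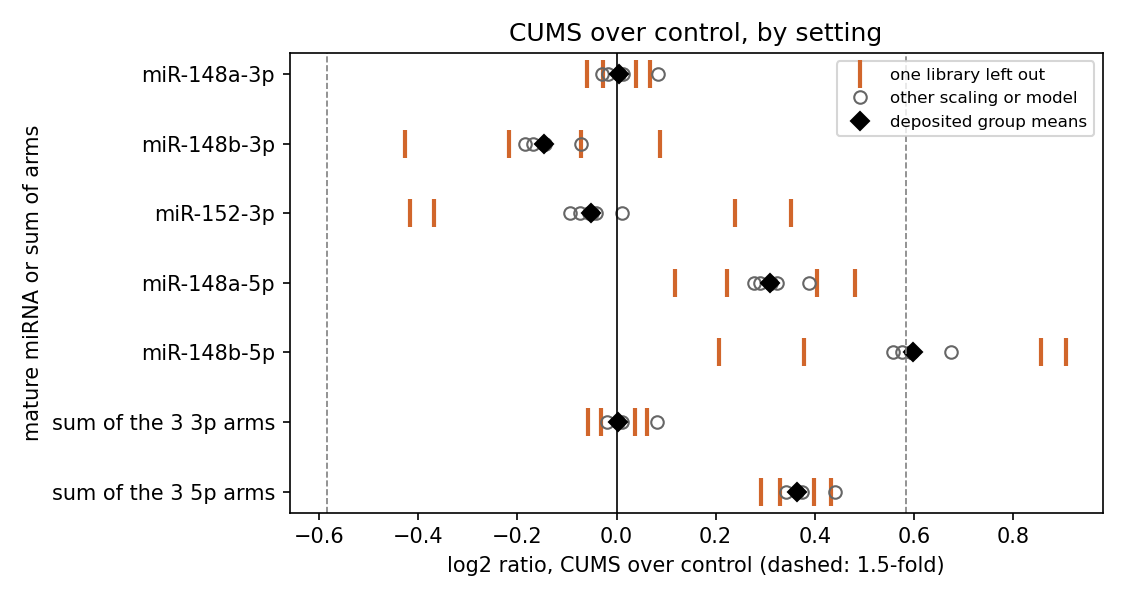
Log2 ratio of CUMS over control for the 5 members with a ratio and for the sums of the 3p and 5p arms. Diamonds show the deposited group means, circles other scalings or models, bars the values with one library left out, and dashed lines a 1.5-fold ratio. The sum of the 5p arms stays between 0.29 and 0.44, whereas the bars of each 3p arm and of the sum of the 3p arms lie on both sides of 0.

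The profiles of miR-148a-3p and miR-148b-5p over the 4 libraries were each compared with those of 346 miRNAs that had means of at least 50, by the root mean square distance of log2 normalized reads after centering. Nearest to miR-148a-3p were miR-129-5p (0.03), miR-488-3p (0.03) and miR-106b-3p (0.03). Its own 5p arm was number 195 in that order, and miR-148b-3p, which carries the same seed, number 235. Nearest to miR-148b-5p were miR-15b-5p (0.07), miR-210-5p (0.12) and miR-210-3p (0.17), while its own 3p arm was number 119. miR-15b-5p was read 56 and 73 times in controls, compared with 87 and 112 times after CUMS, a log2 ratio of 0.65. These distances rest on 4 libraries and are a description.

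Seeds were also compared beyond the family. No other listed miRNA that matched a RefSeq name had the seed CAGUGCA or AAGUUCU. The miR-130 and miR-301 group has the seed AGUGCAA, which is that of the family shifted by 1 base. miR-130a-3p was read 4489 and 4756 times in controls, compared with 4592 and 4045 times after CUMS, a log2 ratio of -0.09. For miR-301a-3p the reads were 4148, 4726, 4449 and 3738 in the same order, with a log2 ratio of -0.11. miR-130b-3p had a log2 ratio of -0.07. miR-350-5p, whose seed AAGUGCA shares 6 bases in a row with that of the family, was read 84 and 94 times in controls, compared with 88 and 94 times after CUMS, a log2 ratio of 0.05. All 4 were listed at levels between those of miR-148a-3p and miR-152-3p, and their log2 ratios ran from -0.11 to 0.05.

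Target sites of the 3p seed were looked for as TGCACTG, the DNA letters that pair with the whole seed, on the transcript strand of annotated 3′ UTRs (GENCODE, GRCm38). It occurred in 2672 of 20997 UTRs (12.7%). The letters that pair with the seed of miR-148a-5p and miR-148b-5p, AGAACTT, occurred in 2912 (13.9%), and those for miR-152-5p, AGAACCT, in 2312 (11.0%). The sites below lie in genes known as targets of the family and are shown to let the seed be read against its match, which is in capitals.
Dnmt1, minus strand: gagccccacgTGCACTGatgtttttaa
Mitf, plus strand: tgaaaaaaaaTGCACTGgggagaagtt

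Dnmt1 encodes the methyltransferase that maintains DNA methylation, and Mitf a transcription factor of pigment cells. The match in Dnmt1 is at chr9:20907492-20907498 and that in Mitf at chr6:98021106-98021112. Abca1 had 2 matches, whereas Dnmt3b and Slc6a11, a GABA transporter, had 0 of these letters in the UTR searched. None of these 5 genes had a match for either 5p seed. The study lists Slc6a11 as a predicted target of miR-148b-5p. It used target prediction programs, a criterion unlike a match to the whole seed in the UTR searched. A match is a description of the letters, and messenger RNA levels were not analysed here.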

How the data were processed

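Small RNA libraries of 4 medial prefrontal cortex samples, 2 control and 2 CUMS, were sequenced. Per the study's methods, the authors trimmed the reads, removed other noncoding RNAs, matched reads to mouse miRNA precursors without mismatches and compared groups with DESeq. Per the labels, the submitters' processing notes name Bowtie, DESeq and mm10, and versions for the small RNA reads are not given in the sources used here. The authors deposited a signal for each group, namely its libraries' reads divided by DESeq size factors and averaged. The authors' fold changes, log2 fold changes and p-values stand beside it and were not used. The number of unmapped sample columns is 0.

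Each group mean combines whole reads of 2 libraries, multiplied by a step per library. Solving for both steps gave whole reads for 1038 of 1038 values in each group (100%, relative residual under 1e-09). For 2 control values and 0 CUMS values, another pair of whole reads left a residual within an order of magnitude of the best. The split of these values between libraries is less certain, and no member was among them. On 20 simulated columns of 1000 values, 100% were recovered. The recovered totals were 10533646 and 10783592 reads in controls, compared with 10427625 and 9589323 after CUMS, where 3 reads, the floor used, equal 0.278 to 0.313 CPM. No recovered library could be tied to a replicate number of the labels, so replicates are unnumbered. The p-values measure the spread between these libraries.

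The main values are ratios of the deposited group means. A test of counts, planned for a count table, used these whole reads and served as an alternative: edgeR 4.0.16 (quasi-likelihood, TMM, at least 5 reads in a library), with 0 miRNAs called after adjustment at 0.05, and DESeq2 1.42.0 (Wald test). limma 3.58.1, in R 4.3.3, was run on the arm ratios and was chosen after seeing the data. The tests were tried on simulated data with 4-fold changes in well-read miRNAs or precursors, at a dispersion of 0.02. There edgeR called 200 of 200 changed and 7 unchanged miRNAs of 666 tested, and DESeq2 200 of 200 and 4 of 719. limma called 37 of 40 changed and 1 unchanged precursors of 201. The power for smaller changes, such as those of the members, was not tested. Alternatives were other scalings, an added 1, other fold thresholds, no filter and leaving out each library. Spread between libraries is the pooled SD of log2 normalized reads. Positions came from GENCODE M21 (GRCm38) and sequences from RefSeq (GRCm38.p6). A result for 1 further target gene is not reported here. Python 3.11.15, numpy 2.4.6, pandas 2.3.3, scipy 1.17.1 and matplotlib 3.10.9 were used. Members named are all 6 arms. The other miRNAs named are the 3 nearest in profile and those whose seeds hold AGUGCA, bases 3 to 8 of the 3p arms. Seeds were searched only for the 884 listed miRNAs with a RefSeq sequence. The members and lists were chosen with earlier results of these data known.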

Additional observations from a re-analysis of the deposited data

How the results depend on the processing

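Of 157 values recomputed under an alternative, 146 stayed within the spread between libraries or within 1.5 times the count, and 11 moved beyond it. The limma counts of precursors given below also moved but were not among the 157. With CPM, the log2 ratio was 0.084 for miR-148a-3p and 0.082 for the sum of the 3p arms, and 2 members had groups that did not overlap, the second being miR-148b-5p. These CPM rest on totals that hold the miR-183 and miR-200 reads, 9.32% in control library b. With the reads of these clusters left out, the log2 ratios were 0.013 and 0.010, and the groups of miR-148b-5p overlapped. Members past the fold threshold numbered 2 at a fold of 1.2, 0 at a fold of 2 and 0 after rescaling to a median of 0. Leaving out 1 library at a time gave -0.43 to 0.09 for the log2 ratio of miR-148b-3p, lowest without CUMS library b, 0 to 1 members past a fold of 1.5, 0 without control library a or CUMS library b, and 0 to 1 members with an unadjusted p under 0.05 by edgeR, the 1 being miR-148b-5p without CUMS library a. The edgeR count of all miRNAs at an adjusted p under 0.05 ranged from 0 to 12, with 12 without control library a, and 0 members were among them. The limma count of precursors at an unadjusted p under 0.05, 11 with all libraries, ranged from 3 without control library a to 24 without CUMS library a. The cause of these moves was not tested. No paired analysis was possible because the recovered libraries carry no replicate numbers. With 2 libraries a group, an exact permutation test of one member cannot go below p = 0.333, and counts of miR-152-5p, 11 reads in all, allow no ratio.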
